A study of Mus musculus with 3 samples.

Results

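The expression of 9 transcription factor genes, *Tcf7*, *Lef1*, *Id3*, *Bach2*, *Tox*, *Tox2*, *Nr4a1*, *Nr4a2* and *Nr4a3*, was examined in tumor-infiltrating lymphocytes (TILs). The genes were chosen by name, out of 32285 genes counted, because they are the factors most often used to describe stem-like and exhausted T cells. Earlier results of these data were known when they were chosen. Single cells were profiled from MC38-Ova tumors, a mouse colon adenocarcinoma line expressing ovalbumin, after 250000 cells were injected under the skin of C57BL/6 mice carrying Kaede. Kaede is a green fluorescent protein that violet light converts to red, so cells present in the tumor at photoconversion become Kaede-red (KR+) and cells arriving afterwards are Kaede-green (KG+). All tumors were isotype control treated, photoconverted on day 13 and harvested on day 15, and the KG+ cells were labeled as 2 biological replicates (Kaede-green 1 and Kaede-green 2) whereas the KR+ cells gave 1 library (Kaede-red). A KR+ cell had been in the tumor for at least 48 h, and a KG+ cell had arrived since photoconversion. The sources used here do not give whether KR+ and KG+ cells came from the same mice, so color cannot be told apart from library or mouse. Every library was sorted for live CD45+ TER119- Kaede+ cells with CD11b+ NK1.1- cells excluded, after digestion for 40 min at 37 °C. Whether a library pooled several mice was not given in the sources used here. P-values therefore set the difference between gates, paired within each library, against its variation over these 3 libraries. The fits moderated the variation of each gene by that of all genes tested. P-values and standard errors are thus not the spread of that gene alone over libraries.

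These factors divide into 3 groups by what they are known to do. TCF-1 (*Tcf7*) and LEF-1 (*Lef1*) are HMG-box factors of naive, memory and stem-like lymphocytes; Id3 holds back E proteins, and Bach2 is a repressor that restrains effector differentiation. Tox and Tox2 are HMG-box factors that rise downstream of NFAT under chronic antigen stimulation and are used as marks of exhaustion, although Tox is also needed early in the development of NK cells and CD4 T cells. Nr4a1, Nr4a2 and Nr4a3 are orphan nuclear receptors whose transcripts are induced within minutes to hours by antigen-receptor and other signals.

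Cells were assigned to gates by the unique molecular identifiers (UMIs) of a few genes, each UMI standing for 1 captured transcript. CD8 T cells had at least 2 *Cd3e* UMIs and at least 1 UMI each of *Cd8a* and *Cd8b1* (9020 cells), CD4 T cells had *Cd3e* and *Cd4* without *Foxp3* (1007 cells), regulatory T cells (Treg) had *Cd3e* and *Foxp3* (1706 cells), and NK cells had *Ncr1* with at most 1 *Cd3e* UMI (8375 cells). The CD8 T gate was divided into cells with *Havcr2* (TIM-3), cells with *Gzmk* but no *Havcr2*, and cells with 0 UMIs of both, called double-negative. The NK gate was divided into cells with *Itga1* (CD49a) alone, with *Itgam* (CD11b) alone, and without either, and 116 cells with both were left out of this division. The marker lists followed the gates. The 5 T cell markers summed to between 5327 and 5981 UMIs per 1000000 UMIs of the gate (CPM) in CD8 T cells and to between 326 and 470 CPM in NK cells. The 7 NK markers summed to between 3661 and 4616 CPM in NK cells, but also to between 657 and 1207 CPM in CD8 T cells. No gene was used to set other innate lymphoid cells apart within the NK gate. The Treg list was highest in the Treg gate (4472 to 5517 CPM) and lower in the CD4 T gate (1449 to 2418 CPM), where *Foxp3* is at 0 because the gate requires it. The libraries shared 20 to 36 cell barcodes, and total UMIs ranged from 87193225 to 175848894 over 10498 to 12327 barcodes. Where 3 values are given for a gate they stand in the order Kaede-green 1, Kaede-green 2, Kaede-red.

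*Tcf7* was highest in CD4 T cells and lowest in CD8 *Havcr2*+ cells, with a 12.5-fold ratio between the means of these gates. It measured 138, 114 and 66.9 CPM in CD4 T cells and 9.54, 12.9 and 2.96 CPM in CD8 *Havcr2*+ cells. Between these extremes lay the CD8 double-negative cells (75.8 ± 30.3 CPM, SD, n = 3 libraries), all 3 NK gates (means of 48.4 to 58.0 CPM), the CD8 *Gzmk*+ cells (46.0 ± 13.9) and the Treg (13.1 ± 3.59). Of the 7 pairs of neighbors in this order, the step from CD8 *Gzmk*+ cells to Treg was the one where the ranges over libraries did not overlap. Ranges and SD pool KG+ and KR+ libraries. Within libraries, CD4 T cells were above double-negative cells in 3 of 3. The same held for NK cells without either integrin transcript over *Itga1*+ cells and for Treg over *Havcr2*+ cells. These means depended on the removal of doublets and of cells passing several lineage gates. With both kept, mean *Tcf7* was 81.4 CPM in CD4 T, 74.5 in double-negative and 11.5 in *Havcr2*+ cells. *Lef1* followed a like order, from 65.0 ± 15.6 CPM in CD4 T cells down to 11.7 ± 1.81 in CD8 *Havcr2*+ cells. Its CD4 T cells were above double-negative cells in 2 of 3 libraries. *Id3* had its highest mean in the CD8 double-negative cells (19.3 ± 7.29 CPM) and its lowest in the CD8 *Havcr2*+ cells (2.82 ± 1.89), a 6.84-fold ratio. Double-negative cells were above CD4 T cells, and *Havcr2*+ below NK *Itga1*+ cells, in 2 of 3 libraries each, with overlapping ranges. *Bach2* differed from the other factors of naive and stem-like cells in that its highest mean was in NK *Itgam*+ cells (39.0 ± 8.42 CPM) and its lowest in Treg (4.57 ± 1.88). For *Bach2* 0 of the 7 pairs of neighbors were separate in range.

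*Tox* was measured at close levels in 4 of the 5 T cell gates, with means of 47.6 to 56.2 CPM in CD8 double-negative, CD8 *Havcr2*+, CD4 T and Treg cells. The CD8 *Gzmk*+ cells stood apart in 2 libraries: *Tox* was at 101 CPM in Kaede-green 1 (95% exact Poisson interval 91.7 to 111) and 99.7 CPM in Kaede-red (91.7 to 108) but at 44.8 CPM in Kaede-green 2 (40.0 to 50.0). All intervals here cover counting error only. NK cells held less *Tox* than any T cell gate, and the steps from *Itgam*+ (30 ± 6.15 CPM) to those without either (18.2 ± 3.77) and to *Itga1*+ cells (11.7 ± 1.88) were separate in range. *Tox2* was close to undetected. It reached 15 UMIs over the 3 libraries in CD4 T cells and 32 in the far larger CD8 T gate, so its levels (2.25 ± 1.24 and 0.297 ± 0.147 CPM) rest on few molecules.

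The *Nr4a* genes did not share 1 order. *Nr4a1* was high in NK *Itgam*+ and CD4 T cells (236 ± 61.0 and 233 ± 42.4 CPM) and lowest in CD8 *Havcr2*+ cells (94.4 ± 27.9). *Nr4a2* was high in NK *Itgam*+ cells (280 ± 63.8 CPM) and in all 3 CD8 gates (means of 229 to 263 CPM), and was lowest in Treg (65.9 ± 10.9). *Nr4a3* was highest in NK *Itgam*+ cells (262 ± 46.4 CPM), separate in range from the next gate, and lowest in Treg (76.3 ± 5.53). NK *Itgam*+ cells thus had the highest mean of all 3 *Nr4a* genes, although for *Nr4a1* and *Nr4a2* the range over libraries overlapped that of the next gate. They were above CD4 T cells in *Nr4a1* in 2 of 3 libraries. In *Nr4a2* they were above CD8 *Havcr2*+ cells in 1 of 3, Kaede-green 1 (354, 247 and 240 against 279, 257.5 and 251 CPM). The plot of levels by gate shows each library.

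**Figure D1:**
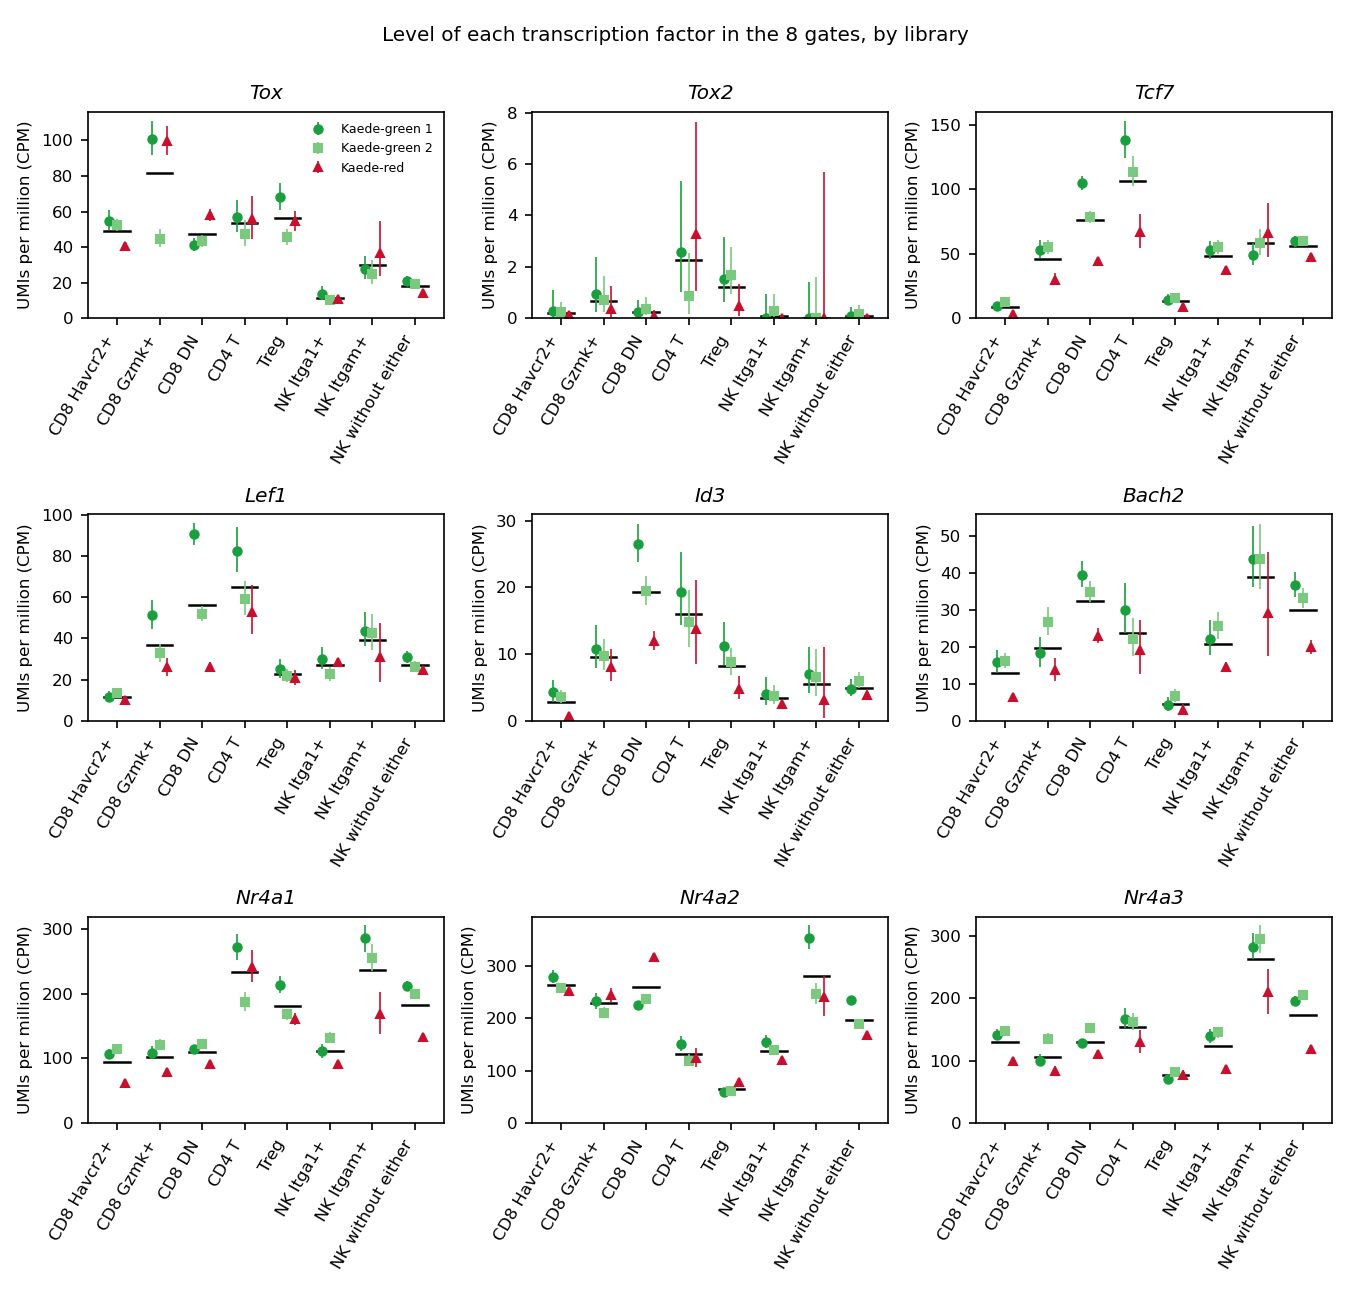
Level of each of the 9 transcription factors (y axis, CPM, from 0; scales differ by panel) in the 8 gates (x axis; DN, double-negative). Each point is 1 library with its 95% exact Poisson interval and each black line the mean of the 3 libraries. *Tcf7* and *Id3* have their lowest means in CD8 *Havcr2*+ cells, and the *Nr4a* genes have their highest means in NK *Itgam*+ cells. For *Nr4a2* the NK *Itgam*+ cells are above CD8 *Havcr2*+ cells in 1 of 3 libraries.

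The promoters of the *Nr4a* genes are shown because the 3 genes fell together in the comparison of NK cells below. The upstream 250 bases of the RefSeq start (GRCm38.p6) were searched on both strands for the half-site of the cyclic AMP response element (CRE), TGACG, which CREB-family factors recognize, and each of the 3 *Nr4a* windows held 4 of them. A window with at least 1 half-site is common (17.7% of 32817 promoter windows), whereas 45 windows (0.137%) held 4 or more. These shares are over all windows and were not matched for base composition, whose part was not tested. None of the 3 windows held the full CRE (TGACGTCA, which contains the half-site on each strand and is in 1.55% of windows), the NBRE bound by Nr4a proteins (AAAGGTCA, 1.34%) or a TCF/LEF motif (ATCAAAG, 3.21%). Half-sites are in capitals, as TGACG or its reverse complement CGTCA. The *Nr4a1* window, chr15:101266596-101266845 on the plus strand, lies within the span of the gene and outside its annotated exons; the *Nr4a2* window is chr2:57124004-57124253 on the minus strand; and of the *Nr4a3* window on the plus strand, 98 bases (chr4:48045055-48045152) with 3 of the 4 half-sites are given, the other 152 being exonic.
Nr4a1: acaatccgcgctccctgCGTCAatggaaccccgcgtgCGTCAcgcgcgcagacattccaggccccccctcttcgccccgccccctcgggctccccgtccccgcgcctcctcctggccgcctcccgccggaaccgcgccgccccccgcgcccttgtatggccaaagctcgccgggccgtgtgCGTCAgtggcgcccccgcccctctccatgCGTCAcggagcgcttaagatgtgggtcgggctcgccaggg
Nr4a2: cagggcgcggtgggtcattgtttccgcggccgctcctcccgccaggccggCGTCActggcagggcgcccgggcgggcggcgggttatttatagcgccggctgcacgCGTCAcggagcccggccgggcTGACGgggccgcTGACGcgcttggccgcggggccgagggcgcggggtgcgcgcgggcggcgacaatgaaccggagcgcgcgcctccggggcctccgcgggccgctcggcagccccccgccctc
Nr4a3: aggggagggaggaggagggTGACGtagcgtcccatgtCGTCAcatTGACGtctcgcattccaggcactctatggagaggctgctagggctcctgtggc
A match of these letters is a description of the window and not evidence of binding. Of the other members, windows for *Tox2*, *Tcf7*, *Lef1*, *Id3* and *Bach2* were searched, and 1 of the 5 *Tox2* windows and the *Id3* window held 1 half-site each. *Tcf7* lies on chromosome 11 (52252371 to 52283014, minus strand), and its span overlaps that of a same-strand gene, *Gm26551*. The spans of *Lef1* (*Gm42449*) and *Bach2* (*Bach2it1* and *Gm24371*) also overlap same-strand genes. The effect of these overlaps on UMI counts was not tested.

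Comparing CD8 *Havcr2*+ with CD8 double-negative cells asks how these factors differ between cells with TIM-3 transcript and cells with neither *Havcr2* nor *Gzmk*. The *Gzmk*+ cells, which also lack *Havcr2*, are left out here and compared below. The 4 factors of naive and stem-like cells were all lower in *Havcr2*+ cells, *Tcf7* by 9.96-fold and *Id3* by 8.44-fold, while *Tox* was at a like level. *Tcf7* measured 9.54, 12.9 and 2.96 CPM in *Havcr2*+ cells and 105, 78.4 and 44.4 CPM in double-negative cells. The groups did not overlap and the direction was the same in 3 of 3 libraries (log2 fold change -3.32 ± 0.20 SE, edgeR adjusted p = 0.000132). *Id3*, the inhibitor of E proteins, measured 4.24, 3.55 and 0.677 CPM against 26.5, 19.5 and 11.9 CPM (log2 fold change -3.08 ± 0.25, edgeR adjusted p = 0.000334). *Lef1* (log2 fold change -2.06 ± 0.24, adjusted p = 0.00129) and *Bach2* (-1.49 ± 0.13, adjusted p = 0.000497) also fell without overlap between the gates. *Tox* was at 55.0, 52.3 and 40.4 CPM in *Havcr2*+ cells and 41.3, 43.4 and 58.1 CPM in double-negative cells. It was higher in *Havcr2*+ cells of both Kaede-green libraries and lower in those of Kaede-red, and the fitted difference was -0.05 ± 0.15 (edgeR adjusted p = 0.851). *Nr4a1* was lower in *Havcr2*+ cells by 1.25-fold (log2 fold change -0.33 ± 0.09, edgeR adjusted p = 0.0319, 3 of 3 libraries), and *Nr4a2* (-0.04 ± 0.10) and *Nr4a3* (-0.09 ± 0.06) did not pass the test. In all, 5 of the 8 members tested were lower and 0 higher, where 23.5% of the 11719 genes tested were called in either direction. *Nr4a1* lost its call without Kaede-red (adjusted p = 0.108) or Kaede-green 2 (0.0536) and turned to 0.17 with gates set on thinned counts, where 2 members were called. Without the library as a block *Id3*, *Bach2* and *Nr4a1* were at adjusted p = 0.051, 0.0864 and 0.473.

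Lists of other genes are given as description, since they were chosen with earlier results of these data known. Of the 18 other genes listed for naive and stem-like T cells, 15 were lower in *Havcr2*+ than in double-negative cells and 0 higher, with a median log2 fold change of -1.66 where the median of all genes was 0.00. Among those with the smallest adjusted p were *Klf3* (-2.78), a zinc-finger repressor, *Dapl1* (-3.24) and *S1pr1* (-2.68), the receptor for egress from tissue. Of the 20 genes listed for inhibitory receptors and terminal differentiation, 13 were higher and 2 lower (median 0.69), led by *Entpd1* (1.81), which encodes the ectonucleotidase CD39, *Id2* (1.21), *Prdm1* (1.12), which encodes Blimp-1, and *Cxcr6* (1.12). *Havcr2*+ cells were also deeper, with a median of 15142 UMIs per cell against 10752, and the part of depth in passing a 1-UMI gate was not tested.

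The CD8 *Gzmk*+ cells lay between the other CD8 gates for the factors of naive and stem-like cells but not for *Tox*. *Tcf7* was at 53.2, 54.9 and 29.96 CPM in *Gzmk*+ cells, which was 1.68-fold lower than in double-negative cells (log2 fold change -0.75 ± 0.10, edgeR adjusted p = 0.000417) and 6.05-fold higher than in *Havcr2*+ cells (-2.60 ± 0.20 for *Havcr2*+ against *Gzmk*+, adjusted p = 4.52e-05). *Id3* fell by 1.04 ± 0.15 and *Bach2* by 0.77 ± 0.13 on the log2 scale from double-negative to *Gzmk*+ cells. Against double-negative cells, 6 of the 8 members tested were lower and 1, *Tox*, was higher, where 20.8% of all genes tested were called. Against *Gzmk*+ cells, *Havcr2*+ cells had 5 members lower and 1, *Nr4a3*, higher (log2 fold change 0.28 ± 0.09, edgeR adjusted p = 0.0429), where 34.4% of all genes tested were called. *Tox* was higher in *Gzmk*+ than in double-negative cells (0.65 ± 0.16, adjusted p = 0.017, 3 of 3 libraries) and lower in *Havcr2*+ than in *Gzmk*+ cells (-0.68 ± 0.22, adjusted p = 0.0391, 2 of 3 libraries). In Kaede-green 2 *Tox* was at 44.8 CPM in *Gzmk*+, 43.4 in double-negative and 52.3 in *Havcr2*+ cells. Both differences in CPM thus came from the other 2 libraries. After every cell was thinned to an equal number of UMIs, the share with a *Tox* UMI was highest in *Gzmk*+ cells of each library. In Kaede-green 2 it was 9.07% in *Gzmk*+ cells (95% Clopper-Pearson interval 7.08 to 11.4). It was 7.21% (5.83 to 8.80) in double-negative and 5.7% (4.36 to 7.29) in *Havcr2*+ cells there. These shares were not tested. With gates set on thinned counts *Lef1* turned from -0.60 to 0.29 in *Gzmk*+ against double-negative cells and *Bach2* from -0.71 to 0.20 in *Havcr2*+ against *Gzmk*+ cells (edgeR adjusted p = 0.366 and 0.869), and *Tcf7* and *Id3* lost their calls in the first of these comparisons (0.178 and 0.235). With DESeq2 the adjusted p for *Tox* was 0.292 and 0.296, and for *Havcr2*+ against *Gzmk*+ cells the call was also lost without Kaede-green 1 (0.0827) or without Kaede-red (0.319). Without the library as a block none of the 7 differences between *Gzmk*+ and double-negative cells passed the test, among 99 genes called in all. Among heat-shock genes, a listed sign of dissociation stress, 4 of 10 were lower in *Gzmk*+ than in double-negative cells and 0 higher. Their part in these differences was not tested.

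Dividing the CD8 T gate by *Tcf7* itself asks which of the other factors were found in the same cells. *Tcf7*+ cells, with at least 1 *Tcf7* UMI, made up 33.8, 28.9 and 14.9% of the CD8 T cells. *Lef1* measured 119, 66.1 and 48.5 CPM in *Tcf7*+ cells and 30, 17.2 and 11.1 CPM in *Tcf7*- cells, a 4.15-fold difference (log2 fold change 2.05 ± 0.06, edgeR adjusted p = 4.68e-07). *Id3* was at 33.6, 22.4 and 22.3 CPM against 8.53, 5.88 and 2.08 CPM (2.45 ± 0.23, adjusted p = 8.48e-05). *Bach2* was higher by 2.2-fold (1.14 ± 0.12, adjusted p = 0.00016), and for all 3 genes the ranges over libraries did not overlap. *Nr4a2* was slightly lower in *Tcf7*+ cells (log2 fold change -0.27 ± 0.06, adjusted p = 0.0091) and *Nr4a3* slightly higher (0.15 ± 0.05, adjusted p = 0.0404), and *Nr4a3* lost its call in each of the 3 fits that left out a library. *Tox* was at 39.3, 37.1 and 57.8 CPM in *Tcf7*+ cells and at 65.1, 52.0 and 50.8 CPM in *Tcf7*- cells. It was thus lower in the *Tcf7*+ cells of both Kaede-green libraries and higher in those of Kaede-red, and did not pass the test (-0.28 ± 0.13, adjusted p = 0.139), although it did without Kaede-red (-0.54, adjusted p = 8.53e-06). Of the 7 other members tested, 4 were higher and 1 lower, where 31.7% of all genes tested were called. With gates set on thinned counts *Lef1* alone was called, and *Tox* turned to 0.05 (edgeR adjusted p = 0.958). Among the listed genes, 15 of 18 for naive and stem-like cells were higher, including *Klf2* (1.63), *Foxp1* (0.98), *Satb1* (1.14) and *Txk* (1.03), and 14 of 20 for inhibitory receptors and terminal differentiation were lower, including *Cxcr6* (-1.65), *Pdcd1* (-1.16), *Ctla4* (-1.06) and *Lag3* (-1.39). Without the library as a block 0 of these members and 175 genes were called. Among heat-shock genes, a listed sign of dissociation stress, 7 of 10 were higher in *Tcf7*+ cells and 0 lower. Their part in these differences was not tested.

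**Figure D2:**
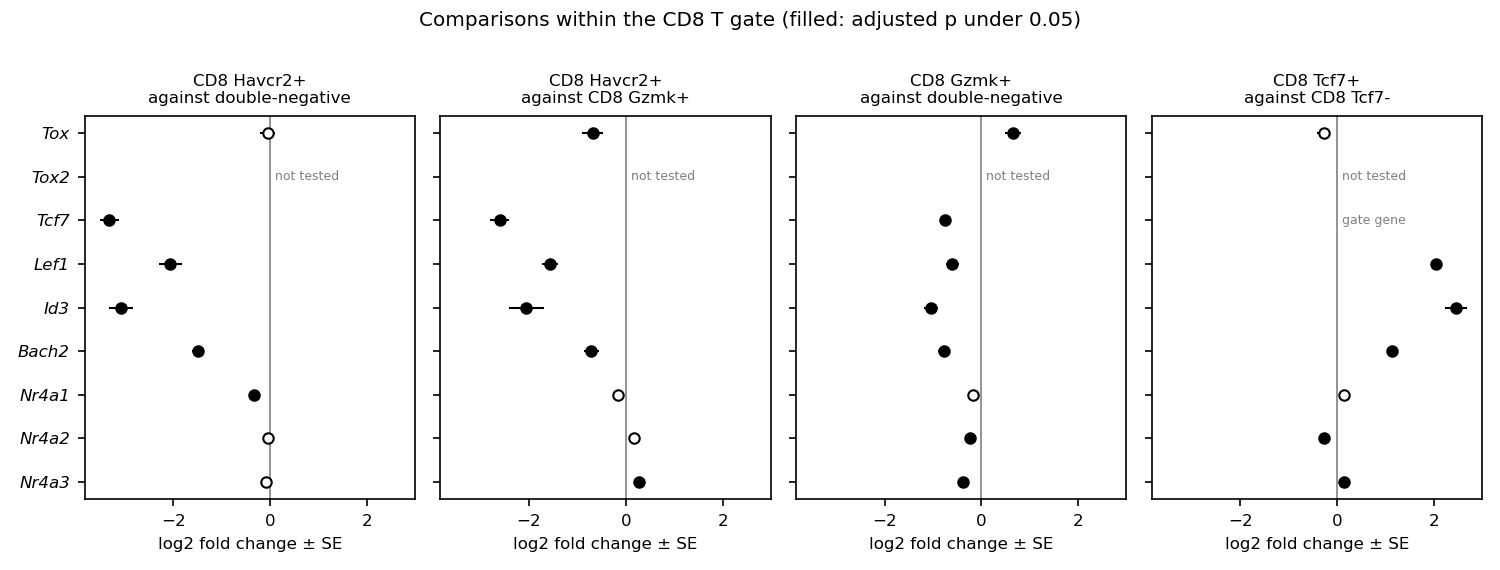
Log2 fold change with its standard error (x axis) of each transcription factor (y axis) in 4 comparisons of gates within CD8 T cells, fitted with edgeR over 3 libraries; filled points passed an adjusted p of 0.05. *Tcf7*, *Lef1*, *Id3* and *Bach2* lie to the left of 0 in the first 3 panels, and *Tox* lies to the right in *Gzmk*+ against double-negative cells.

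Single cells were then compared at 2000 UMIs each, to which every cell was thinned, because deeper cells detect more genes. At this depth, 7.87% of the 9018 CD8 T cells had a *Tcf7* UMI (24.04% with all UMIs) and 9.68% a *Tox* UMI (35.5%). Both were detected in 23, 16 and 20 CD8 T cells, or 1.08, 0.534 and 0.515%. Of CD8 T cells with a *Tcf7* UMI, 8.49, 5.84 and 12.1% also had a *Tox* UMI, against 12.4, 7.27 and 10.3% of those without. The share with *Tox* was thus lower beside *Tcf7* in both Kaede-green libraries and higher in Kaede-red, and these shares were not tested. *Lef1*, by contrast, was found in 22.1, 13.9 and 12.7% of CD8 T cells with *Tcf7* and in 9.16, 6.28 and 3.39% of those without. In CD8 *Havcr2*+ cells *Tcf7* was detected in 2.33, 2.80 and 0.765% of cells. B cells, which should lack *Tcf7*, gave 0.429% (95% Clopper-Pearson interval 0.0109 to 2.37%, 233 cells), and the shares in *Havcr2*+ cells of Kaede-green 1 and Kaede-red were within this interval. The B cells were 154, 77 and 2 in the 3 libraries, so the background of Kaede-red itself was not measurable. *Tox* was in 0 of 233 B cells, which allows a share of cells with a UMI of up to 1.29% by a limit of 3 counts and 1.57% by the upper Clopper-Pearson bound, against 4.00% of NK cells, 11.2% of CD4 T cells, 9.68% of Treg and 7.22, 15.6 and 8.90% of CD8 *Havcr2*+, *Gzmk*+ and double-negative cells, and with all UMIs the median depth was 4290 UMIs for B cells, 8860 for NK cells and 11136 for CD8 T cells. In NK cells *Tcf7* and *Tox* were detected together in 0.347 to 1.02% of cells.

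**Figure D3:**
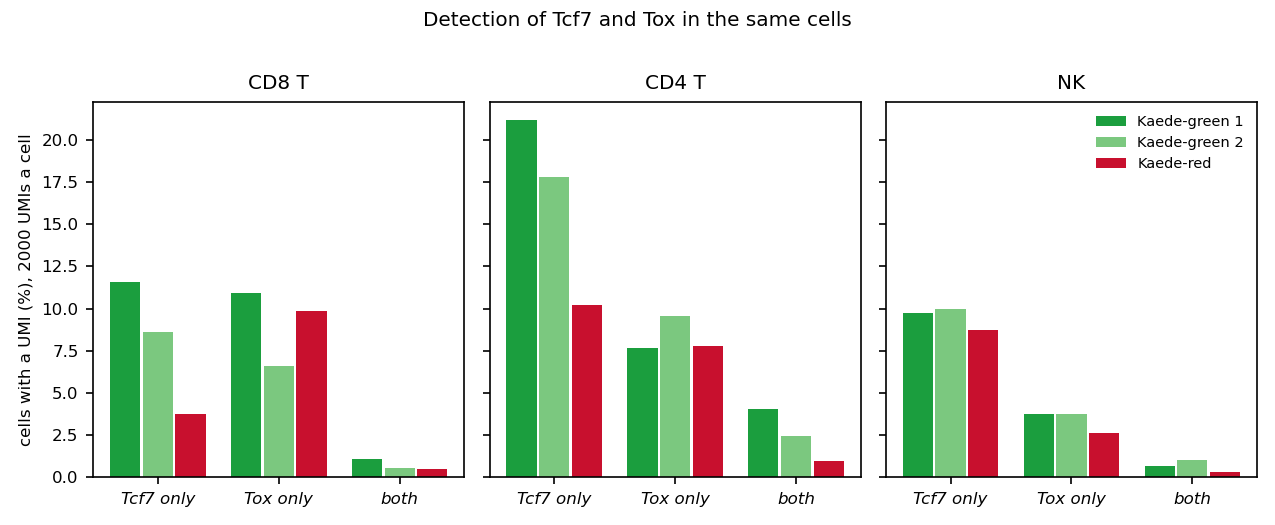
Share of cells (y axis, percent, from 0) with a *Tcf7* UMI only, a *Tox* UMI only or both, after each cell was thinned to 2000 UMIs, in the CD8 T, CD4 T and NK gates; each bar is 1 library. The *Tcf7*-only share of CD8 T cells falls from 11.6 and 8.61% in the Kaede-green libraries to 3.73% in Kaede-red, and cells with both make up at most 4.08% of any gate shown.

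CD4 T cells had more *Nr4a1* and less *Nr4a2* than CD8 T cells. *Nr4a1* measured 111, 119 and 74.1 CPM in CD8 T cells and 271, 188 and 241 CPM in CD4 T cells, a 2.16-fold difference (log2 fold change -1.11 ± 0.15, edgeR adjusted p = 0.000617). *Nr4a2* went the other way, with 242, 241 and 274 CPM in CD8 T cells and 151, 119 and 124 CPM in CD4 T cells (1.03 ± 0.10, adjusted p = 8.1e-05). For both genes the ranges over libraries did not overlap. *Tcf7* (-1.21 ± 0.13, adjusted p = 0.00012) and *Lef1* (-0.81 ± 0.18, adjusted p = 0.00722) were lower in CD8 T cells in 3 of 3 libraries, and *Tox2* was lower on few UMIs (-2.68 ± 0.76, adjusted p = 0.0232). *Tox*, *Id3*, *Bach2* and *Nr4a3* did not pass the test, with fitted differences of 0.05, -0.44, 0.03 and -0.20. Thus 4 of 9 members were lower and 1 higher in CD8 T cells, where 30.7% of all genes tested were called. Of the 22 immediate early genes listed, 13 were lower in CD8 than in CD4 T cells and 1 higher (median -0.62), with *Crem* (-0.78), *Cd69* (-1.15) and *Fos* (-1.07) among the lower and *Ier3* (1.71) the higher. Of the 10 heat-shock genes 5 were higher and 3 lower, and median depth was 11136 UMIs in CD8 and 6117 in CD4 T cells. Their parts in these differences were not tested. With doublets and cells passing several lineage gates kept, mean *Nr4a1* in CD4 T cells was 191 in place of 233 CPM. Mean *Nr4a2* was then 171 in place of 131 CPM, against 247 in place of 252 CPM in CD8 T cells. In CD4 T cells mean *Tcf7* was then 81.4 in place of 106 CPM and *Lef1* 51.55 in place of 64.96 CPM. In CD8 T cells *Tcf7* was then 45.4 and *Lef1* 37.1 CPM.

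Treg held less of every member that passed the test than CD4 T cells did, and the largest difference was in *Tcf7*. *Tcf7* was at 14.5, 15.8 and 9.06 CPM in the Treg, which was 8.18-fold lower than in CD4 T cells (log2 fold change -3.03 ± 0.14, edgeR adjusted p = 7.32e-07). *Bach2*, which in mice is needed for Treg development, was at 4.18, 6.62 and 2.92 CPM against 30, 22.2 and 19.0 CPM (-2.37 ± 0.26, adjusted p = 0.000125). *Lef1* (-1.56 ± 0.13), *Id3* (-1.0 ± 0.23), *Nr4a2* (-1.05 ± 0.14) and *Nr4a3* (-1.05 ± 0.12) also fell with no overlap between the gates. *Nr4a1* fell by 0.41 ± 0.11 on the log2 scale (adjusted p = 0.0182). *Tox* did not pass the test, at 68.2, 45.6 and 54.6 CPM in Treg and 57.0, 47.5 and 55.7 CPM in CD4 T cells (0.01 ± 0.12, adjusted p = 0.959). In all 7 of 8 members tested were lower and 0 higher, where 28.8% of all genes tested were called. The sizes depended on the removal of doublets together with cells passing several lineage gates, whose parts were not separated. With both kept, mean *Bach2* in Treg was 10.6 CPM in place of 4.57 and *Nr4a2* 106 in place of 65.9 CPM. The log2 fold changes of *Tcf7* and *Bach2* were then -2.01 and -1.15, and *Id3* and *Nr4a1* lost their calls (edgeR adjusted p = 0.0836 and 0.369). The immediate early list moved in the same direction (13 of 21 tested lower, 1 higher), as did the listed naive and stem-like genes (9 of 16 lower, 1 higher), in which *Klf3* fell by 2.77 and *S1pr1* by 2.24. Among heat-shock genes, a listed sign of dissociation stress, 4 of 10 were lower in Treg and 0 higher. Their part in these differences was not tested. When gates were set on counts thinned to 2000 UMIs, which by construction sends Treg without a sampled *Foxp3* UMI to the CD4 T gate, 1 member was called.

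NK cells differed from CD8 T cells most in *Tox*. It measured 20.5, 17.5 and 12.4 CPM in the NK cells and 56.0, 47.4 and 51.9 CPM in the CD8 T cells, a 3.03-fold difference with no overlap (log2 fold change -1.60 ± 0.13, edgeR adjusted p = 0.00102). *Id3* was lower in NK cells (-1.12 ± 0.24, adjusted p = 0.022), and *Nr4a1* (0.73 ± 0.07, adjusted p = 0.00212) and *Bach2* (0.39 ± 0.09, adjusted p = 0.0248) were higher, each in 3 of 3 libraries with overlapping ranges. *Tcf7* was at 56.6, 58.5 and 41.3 CPM in NK cells and 68.6, 46.6 and 19.7 CPM in CD8 T cells. It was therefore lower in the NK cells of Kaede-green 1 and higher in those of the other libraries, and the difference did not pass the test (0.43 ± 0.28, adjusted p = 0.301). With 2 members lower and 2 higher of 8 tested, where 29.1% of all genes tested were called, NK and CD8 T cells showed no common direction over these factors. Without the library as a block, the calls for *Id3*, *Bach2* and *Nr4a1* were lost, and *Bach2* was also lost without Kaede-green 2 (adjusted p = 0.148).

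Within NK cells, *Itga1*+ cells were compared with *Itgam*+ cells because conventional NK cells carry CD11b and the CD49a+ cells of tumors do not. All 3 *Nr4a* genes, *Tox* and *Bach2* were lower in *Itga1*+ cells, each by 1.76- to 2.37-fold and without overlap between the gates. *Nr4a3* measured 139, 146 and 86.7 CPM in the *Itga1*+ cells and 283, 295 and 209 CPM in the *Itgam*+ cells (log2 fold change -1.02 ± 0.09, edgeR adjusted p = 1.1e-05). *Nr4a1* was at 111, 132 and 91.0 CPM against 285, 256 and 168 CPM (-1.0 ± 0.11, adjusted p = 3.13e-05). *Nr4a2* was at 155, 139 and 121 CPM against 354, 247 and 240 CPM (-0.93 ± 0.09, adjusted p = 2.44e-05). Every *Itgam*+ value of the *Nr4a* genes was above every *Itga1*+ value, in KG+ and KR+ cells alike. *Tox* was lower in *Itga1*+ cells by 1.24 ± 0.20 on the log2 scale (adjusted p = 0.000611), *Bach2* by 0.82 ± 0.13 (adjusted p = 0.000563) and *Lef1* by 0.53 ± 0.15 (adjusted p = 0.0149). *Tcf7* was at 52.5, 55.3 and 37.2 CPM against 49.3, 58.6 and 66.2 CPM, and neither *Tcf7* (-0.11 ± 0.15, adjusted p = 0.603) nor *Id3* (-0.65 ± 0.34, adjusted p = 0.161) passed the test. In all, 6 of 8 members tested were lower and 0 higher, where 35.8% of all genes tested were called. Cells without either integrin transcript lay between the *Itga1*+ and *Itgam*+ cells for all 3 *Nr4a* genes and for *Bach2* in every library, as the plot of NK cells shows.

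**Figure D4:**
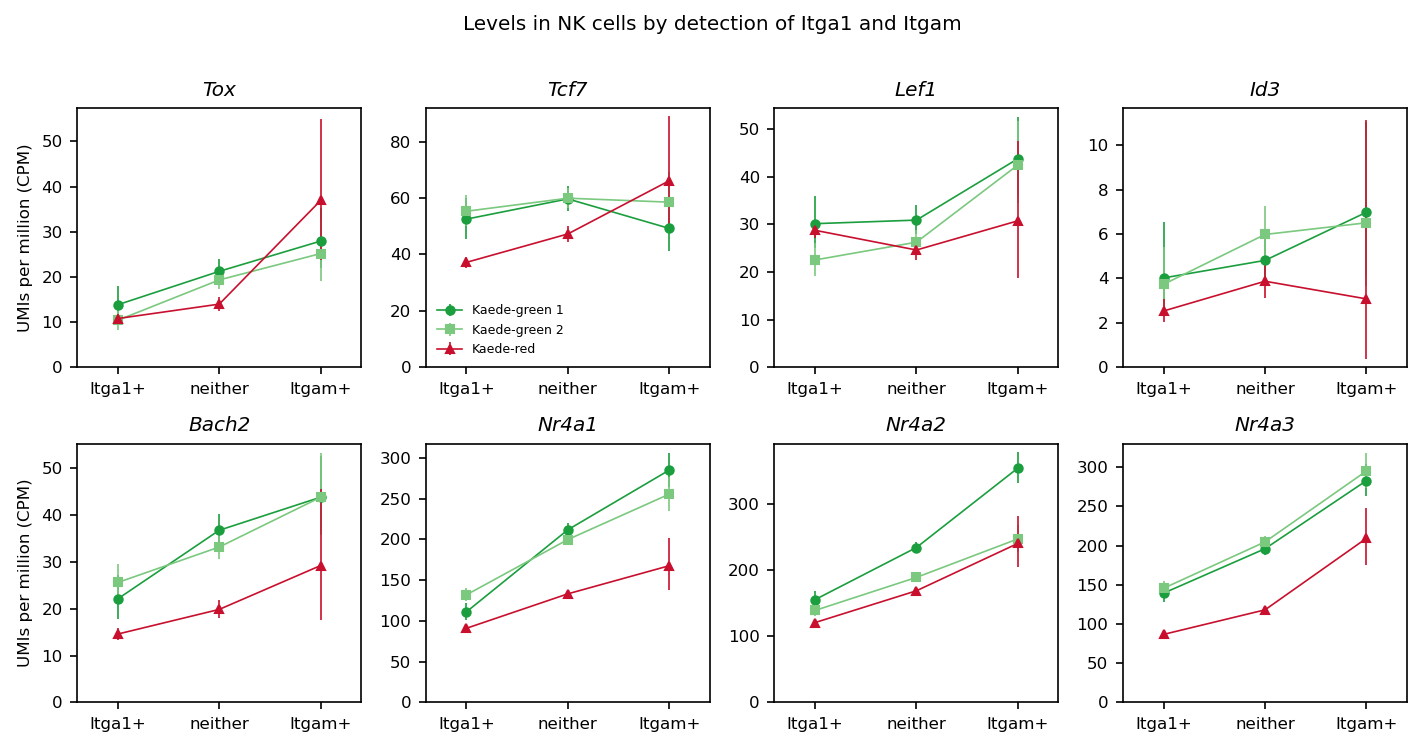
Level of 8 transcription factors (y axis, CPM, from 0; scales differ by panel) in NK cells with *Itga1* alone, without either integrin transcript and with *Itgam* alone (x axis). Points are libraries with 95% exact Poisson intervals, joined by library; the 3 *Nr4a* genes climb from *Itga1*+ to *Itgam*+ cells in each library, whereas *Tcf7* shows no common direction.

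Other signal-induced genes moved with the *Nr4a* genes in this comparison. Of the 22 immediate early genes listed, 19 were lower in *Itga1*+ than in *Itgam*+ cells and 0 higher (median -0.87, all genes -0.01), with *Ier5* (-1.24), *Nfkbia* (-1.04), *Ier2* (-1.10) and *Dusp2* (-0.88) at the smallest adjusted p. Their summed level was 3993 to 5601 CPM in *Itga1*+ cells and 8576 to 10338 CPM in *Itgam*+ cells. The heat-shock genes, listed as a sign of dissociation stress, did not share this direction, with 4 of 10 higher and 4 lower and summed levels of 5079 to 5714 against 3902 to 4991 CPM. *Itga1*+ cells were deeper in every library (medians of 9315, 12034 and 24478 UMIs against 5341.5, 6700.5 and 6701), and myeloid markers summed to 83.8, 544 and 312 CPM in *Itgam*+ cells against 45.6 to 89.4 CPM in *Itga1*+ cells. The parts of depth, digestion and myeloid RNA in these differences were not tested. On counts thinned to 2000 UMIs a cell, 3 of the 6 calls were made, those of the *Nr4a* genes, and *Tox*, *Bach2* and *Lef1* were not called.

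KR+ cells were compared with KG+ cells within each lineage. Because KR+ cells gave 1 library no test was run, and a factor was called when the KR+ value differed from both Kaede-green libraries in the same direction, by at least 1.5-fold and by more than those libraries differed from each other, with at least 30 UMIs in all. By this rule 6 of 9 members were lower in KR+ CD8 T cells, 1 of 8 in CD4 T cells, 2 of 8 in Treg and 4 of 8 in NK cells, and 0 were higher in any lineage. Over all genes, the share lower in KR+ cells was 6.88% in CD8 T cells, 3.96% in CD4 T cells, 2.94% in Treg and 14.9% in NK cells, so the NK counts stand against the largest background. The share higher was 4.18, 5.43, 3.40 and 5.71% in the same order of lineages.

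In CD8 T cells *Tcf7* measured 68.6 CPM in Kaede-green 1 (95% exact Poisson interval 65.3 to 72.0), 46.6 CPM in Kaede-green 2 (44.5 to 48.8) and 19.7 CPM in Kaede-red (18.6 to 20.8). *Lef1* was at 61.3, 32.4 and 16.9 CPM and *Id3* at 17.4, 11.01 and 5.23 CPM in the same order. The Kaede-green libraries themselves differed in these genes, by -0.56, -0.92 and -0.66 on the log2 scale, but Kaede-red was below both. For *Lef1* the margin was narrow, since the log2 ratio of Kaede-red to Kaede-green 2 was -0.94. *Bach2* was at 28.9, 25.5 and 12.8 CPM and *Nr4a1* at 111, 119 and 74.1 CPM. *Tox2* was also called, on 8 KR+ UMIs. Its Kaede-red interval (0.055 to 0.25 CPM) overlapped those of Kaede-green 1 (0.17 to 0.73) and Kaede-green 2 (0.21 to 0.63). *Tox* (56.0, 47.4 and 51.9 CPM), *Nr4a2* (242, 241 and 274 CPM) and *Nr4a3* (127, 148 and 102 CPM) were not called. Of the 18 other naive and stem-like genes listed, 10 were lower in KR+ CD8 T cells and 0 higher, and of the 22 immediate early genes 3 were lower and 0 higher. The 20 inhibitory receptor and terminal differentiation genes showed no common direction, with 2 lower and 2 higher.

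As gated, *Havcr2*+ cells were 20.1 and 34.6% of CD8 T cells in the Kaede-green libraries and 47.2% in Kaede-red. The median depth of CD8 T cells rose in the same order, from 8614 and 10212 to 13874 UMIs. The part of depth in these shares and in the differences by color was not tested. *Tcf7* was called lower in KR+ cells within each of the 3 CD8 gates. In *Havcr2*+ cells it was at 9.54 CPM (7.33 to 12.2), 12.9 CPM (11.2 to 14.7) and, in Kaede-red, 2.96 CPM (2.42 to 3.59). The background was close to these levels, since B cells were at 1.49 CPM (0.0378 to 8.31) and 8.53 CPM (2.33 to 21.9) in the Kaede-green libraries, and its part in the *Havcr2*+ values and in the ratios to them was not tested. In *Gzmk*+ cells it was at 53.2, 54.9 and 29.96 CPM, and in double-negative cells at 105, 78.4 and 44.4 CPM. *Id3* and *Bach2* were called lower in *Havcr2*+ and double-negative cells, *Lef1* in double-negative cells alone (90.7, 52.1 and 26.1 CPM) and *Nr4a1* in *Havcr2*+ cells alone (106, 114 and 62.6 CPM). In all, 4 of 8 members were lower in KR+ *Havcr2*+ cells, 1 in *Gzmk*+ and 4 in double-negative cells, where 3.97, 3.89 and 4.71% of all genes were lower. *Tox* was below both Kaede-green libraries in KR+ *Havcr2*+ cells (40.4 against 55.0 and 52.3 CPM) and above both in double-negative cells (58.1 against 41.3 and 43.4 CPM), differences that stayed under 1.5-fold.

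In CD4 T cells *Tcf7* was the 1 member called, at 138, 114 and 66.9 CPM. Treg markers summed to 1449 and 1662 CPM in the CD4 T gate of the Kaede-green libraries and to 2418 CPM in that of Kaede-red, and their part in the *Tcf7* difference was not tested. In Treg *Tcf7* (14.5, 15.8 and 9.06 CPM) and *Id3* (11.2, 8.76 and 4.76 CPM) were called lower. Of the 10 heat-shock genes, listed as a sign of dissociation stress, 3 were also lower in KR+ Treg and 0 higher, with summed levels of 5484, 6388 and 4243 CPM, and their part in these differences was not tested. With doublets and cells passing several lineage gates kept, 5 members were called in CD4 T cells. The share of all genes called under this setting is not given here, so this count has no background.

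In NK cells the factors called lower in KR+ cells were *Nr4a1* (200, 186 and 107 CPM), *Nr4a3* (196, 196 and 99.4 CPM), *Bach2* (34.7, 32.1 and 16.8 CPM) and *Id3* (4.93, 5.67 and 3.01 CPM). *Tcf7* was lower by less than 1.5-fold (56.6, 58.5 and 41.3 CPM), and the difference from CD8 T cells, where it was called, was not tested. Of the 18 other naive and stem-like genes listed, 13 were lower in KR+ NK cells and 0 higher, and of the 20 inhibitory receptor and terminal differentiation genes 6 were lower and 2 higher. *Itga1*+ cells were 12.0 and 18.4% of NK cells in the Kaede-green libraries and 48.1% in Kaede-red. Within *Itga1*+ cells, *Nr4a3* (139, 146 and 86.7 CPM) and *Bach2* (22.1, 25.6 and 14.6 CPM) were called, and *Nr4a1* (111, 132 and 91.0 CPM) was not. The same 2 genes were called in cells without either integrin transcript, and *Nr4a1* and *Id3* in *Itgam*+ cells, where Kaede-red had 76 cells and 2 *Id3* UMIs. These are 2 of 8 members in each NK gate, where 7.98% of genes in *Itga1*+ cells and 11.7% in each of the other gates were lower. The immediate early genes summed to 8241 and 7214 CPM in KG+ NK cells and to 4564 CPM in KR+ NK cells, with 8 of 22 called lower and 1 higher, and the median depth of NK cells was 6084 and 8152.5 UMIs in the Kaede-green libraries and 17232 in Kaede-red. The part of depth and of these signals in the NK differences was not tested.

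**Figure D5:**
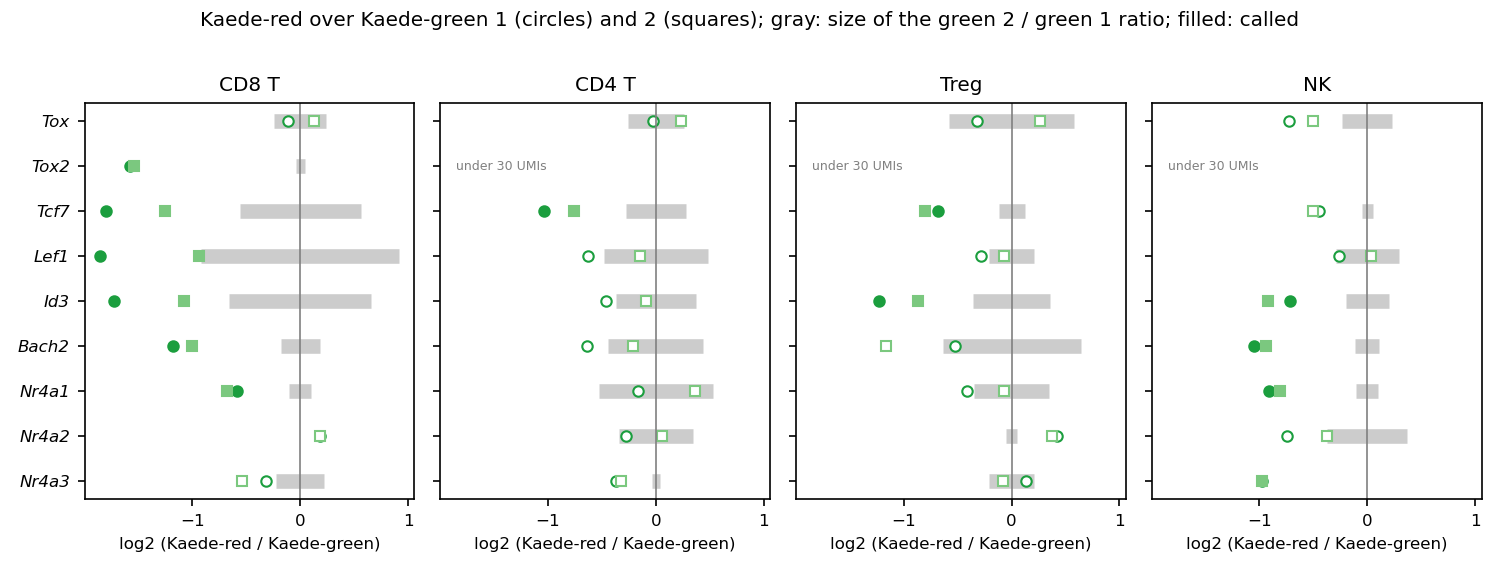
Log2 ratio of the Kaede-red level to that of Kaede-green 1 (circles) and Kaede-green 2 (squares) on the x axis for each transcription factor (y axis) in 4 lineages; gray bars span the size of the ratio between the Kaede-green libraries, and filled points met the 1.5-fold rule. All filled points lie to the left of 0, and *Tox* has filled points in no lineage.

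The genes whose levels were most like those of each factor were sought over 24 sums, the 8 gates in 3 libraries, among 5076 genes. These sums share libraries and, within a library, depth and free RNA, so the correlations are descriptions. *Tcf7* was most like *Sesn3* (Pearson r = 0.96), *Emb* (0.94) and *Tespa1* (0.93), and *Susd3* (0.91) and *Lat* (0.90) were among the 3 genes most like *Tox*. *Lef1* was most like *Klf3* (0.88), *Id3* like *S1pr1* (0.87) and *Slamf6* (0.83), and *Bach2* like *Pdlim1* and the mitochondrial transcript *mt-Nd5* (0.93 each). *Nr4a1* was most like *Junb* (0.95), *Birc3* (0.93) and *Nfkbid* (0.93), whereas *Nr4a2* was most like *Atp5h* (0.91) and *Nr4a3* like *Zfp62* (0.92). Among the members, *Tcf7* and *Lef1* (0.86), *Bach2* and *Nr4a3* (0.82) and *Lef1* and *Id3* (0.79) were closest, while *Tcf7* and *Tox* gave -0.20 and *Nr4a1* and *Nr4a2* gave -0.26.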

How the data were processed

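Single-cell RNA-seq was measured in 3 libraries, 2 Kaede-green and 1 Kaede-red. The values are whole-number UMI counts, which the authors deposited as Cell Ranger gave them (version 6.1.2 per the submitters' processing notes, 6.0.1 in the file headers), on GRCm38 with a GENCODE M21 gene set. No column lacked a sample. The filter on quality required 1000 to 6000 detected genes, with mitochondrial transcripts below 7.5%, and left 10000, 11078 and 10865 cells. Doublets were scored by Scrublet's method, rewritten here, and removed by outlying Leiden subclusters (447, 361 and 270 cells), as were cells passing several lineage gates (107, 301 and 189). Median depth was 6438, 8007 and 11079 UMIs per barcode, and counting intervals are exact at 95%.

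UMIs were summed per library and gate, since cells are not replicates, and gates were compared with edgeR 4.0.16 (quasi-likelihood test, TMM, filterByExpr, Benjamini-Hochberg threshold 0.05; limma 3.58.1, R 4.3.3) with the library as a block. Pairing comes from the design: the gates compared hold cells of the same library, assigned by their UMIs. CPM are shares of a gate's UMIs and are not corrected for gene length, so levels were not compared between genes. Kaede-red was compared with Kaede-green by log2 CPM ratios with 0.5 added to counts and no test. Alternatives were DESeq2 1.42.0, no filter, no block, doublets kept, gates or sums on counts thinned to 2000 UMIs per cell, 1 added to counts, and each library left out. Wherever doublets were kept, cells passing several lineage gates were kept as well. The code was tested on simulated data. The 9 members were named in every comparison, with up to 4 genes per list by smallest adjusted p (some others are named where their values differed in direction) and the most correlated genes of at least 20 mean CPM; some genes that these rules name are not reported here. The members and lists were chosen with earlier results of these data known.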

Additional observations from a re-analysis of the deposited data

How the results depend on the processing

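Of the 64 tests of members between gates, 45 passed the threshold, and 13 of these 45 kept their direction and their side of it under every alternative run. Several limits bear on the calls: each comparison rests on 3 libraries, gates set on 1 UMI pass deeper cells more often, and the color comparison has 1 Kaede-red library. The causes of the changes below were not tested, except that thinning leaves fewer UMIs by construction.

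Without the replicate block, which pairs gates of the same library, 3 members were called in CD8 against CD4 T cells (5 with it), 1 in NK against CD8 T cells (4), 3 in *Havcr2*+ against *Gzmk*+ cells (6), 2 in *Havcr2*+ against double-negative cells (5), 0 in *Gzmk*+ against double-negative cells (7) and 0 in *Tcf7*+ against *Tcf7*- cells (5), and in these comparisons the genes called in all numbered 1911 (3549), 1852 (3747), 1839 (3637), 214 (2759), 99 (2304) and 175 (3663). With DESeq2 the genes called numbered 1525 in Treg against CD4 T cells (2887 with edgeR), 2157, 1626 and 1190 in the 3 comparisons of *Havcr2*+, *Gzmk*+ and double-negative cells in that order, 2104 in NK *Itga1*+ against *Itgam*+ cells (3387) and 2054 in *Tcf7*+ against *Tcf7*- cells. With gates set on thinned counts, members called fell to 1 in Treg against CD4 T cells (7), 2 in *Havcr2*+ and 4 in *Gzmk*+ against double-negative cells, 3 in NK *Itga1*+ against *Itgam*+ cells (6) and 1 in *Tcf7*+ against *Tcf7*- cells. Genes called with these gates numbered 1501 in CD8 against CD4 T cells, 419 in Treg against CD4 T cells, 632, 154 and 1187 in the CD8 comparisons in the same order, 681 in NK cells and 167 for *Tcf7*+ cells. With sums of thinned counts, members called were 4 in Treg and 3 in NK *Itga1*+ cells, and genes called numbered 1628, 1480, 2029, 1134, 1121, 850 and 1422 in that order of comparisons. With doublets kept, 1070 genes were called in Treg against CD4 T cells. In the color comparison, members called in CD4 T cells (1) became 5 with doublets kept, 2 with gates on thinned counts and 3 with thinned sums, and in Treg (2) became 1 with gates on thinned counts. For these color counts, and those with a library left out, the share of all genes called is not given here.

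Leaving out 1 library at a time, members called ranged from 3 (without Kaede-red) to 6 in *Havcr2*+ against *Gzmk*+ cells, from 3 (without Kaede-green 2) to 5 in *Tcf7*+ against *Tcf7*- cells, and from 1 to 3 (without Kaede-green 2) for color in CD4 T cells. Genes called ranged from 1730 to 3634 in Treg against CD4 T cells, 2424 to 4853 in NK against CD8 T cells, 2349 to 3015 in *Havcr2*+ against *Gzmk*+ cells, 1312 to 2987 in *Havcr2*+ and 1337 to 2074 in *Gzmk*+ against double-negative cells, 2099 to 3401 in NK *Itga1*+ against *Itgam*+ cells and 2311 to 3445 in *Tcf7*+ against *Tcf7*- cells.

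Signs that turned are given as log2 fold changes, and 3 of them were of called differences between gates (*Bach2* in *Havcr2*+ against *Gzmk*+ cells, and *Nr4a1* in *Havcr2*+ and *Lef1* in *Gzmk*+ against double-negative cells). In CD8 against CD4 T cells they were *Bach2* (-0.01 with DESeq2, -0.02 without the block, -0.13 without Kaede-green 2, up to 0.17 without another library), *Nr4a3* (0.27 with gates on thinned counts) and *Tox* (-0.20 with thinned sums). In Treg against CD4 T cells *Tox* turned to -0.02 with doublets kept, -0.39 with thinned sums and -0.08 without Kaede-green 1 (up to 0.06 without another library). *Lef1* in NK against CD8 T cells turned to 0.54 with gates on thinned counts and 0.28 without Kaede-green 1 (down to -0.58 without Kaede-red). Gates on thinned counts also turned *Bach2* (0.20) and *Nr4a1* (0.37) in *Havcr2*+ against *Gzmk*+ cells, *Nr4a1* (0.17) and *Nr4a3* (0.15) in *Havcr2*+ against double-negative cells, *Lef1* (0.29) in *Gzmk*+ against double-negative cells, *Tcf7* (0.36) in NK cells and *Tox* (0.05) in *Tcf7*+ cells. Without Kaede-red, *Tox* (0.23) and *Nr4a2* (0.11) turned in *Havcr2*+ against double-negative cells, *Tcf7* (0.09) in NK *Itga1*+ cells and *Nr4a1* (-0.07) in *Tcf7*+ cells, and at the other end, without Kaede-green 1, these were at -0.21, -0.17, -0.30 and 0.32. With thinned sums *Tcf7* was at 0.02 in NK *Itga1*+ cells, and the color ratio of *Id3* in NK *Itgam*+ cells, resting on 2 Kaede-red UMIs, turned to 2.60.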

Other observations

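A small set of B cells (154, 77 and 2 cells Kaede-green libraries first, with *Cd79a* and *Ms4a1* and no *Cd3e* or *Ncr1*) entered no comparison, and showed another combination of these factors. *Bach2* was at 149 CPM (95% exact Poisson interval 121 to 182) in Kaede-green 1 and 122 CPM (92.1 to 158) in Kaede-green 2, *Id3* at 136 CPM (109 to 167) and 111 CPM (82.9 to 145) and *Nr4a1* at 648 CPM (588 to 711) and 412 CPM (356 to 474). Each of these values was above that of every T and NK gate in the same library. *Tox* had 0 UMIs in B cells of all 3 libraries. In the 83 myeloid cells with *Csf1r* and *Lyz2*, *Nr4a1* was at 303, 385 and 372 CPM in the same order, and *Tox*, *Tcf7* and *Lef1* had 3, 3 and 1 UMIs, each of them in Kaede-green 2.

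In CD8 T cells thinned to 2000 UMIs, *Nr4a2* was detected in 43.1, 37.4 and 44.6% of cells with a *Tox* UMI and in 30.2, 30.8 and 35.8% of cells without one. *Nr4a2* was found in fewer cells with a *Tcf7* UMI (24.7, 25.9 and 29.1%) than in cells without (32.7, 31.8 and 37.1%). *Nr4a3* was detected in 29.2, 33.0 and 25.8% of cells with *Nr4a1* and in 19.2, 22.9 and 15.5% of cells without. These shares are descriptions over cells of 3 libraries, with no test.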
